A study of Rattus norvegicus with 22 samples.

Results

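The NRF2 oxidative stress genes examined here were the transcription factor gene Nfe2l2, which encodes NRF2, its inhibitor Keap1, and the target genes Hmox1, Nqo1, Gclc, Gclm, Srxn1, Txnrd1 and Slc7a11. These 9 genes were chosen by name, with earlier results of these data known, from the 17172 genes of a hippocampal RNA-seq count table. All 9 were in the table, and all 9 were among the 12875 genes that passed the filter on low counts. The lowest count of any member in any sample was 97, for Hmox1.

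Gene expression was measured by poly(A) RNA-seq in the hippocampus on the injured side of adult male Sprague-Dawley rats after lateral fluid percussion, a model of traumatic brain injury (TBI) in which a pulse of fluid strikes the exposed dura. The 4 groups were sham day 1 (n = 2), TBI day 1 (n = 4), sham day 14 (n = 4) and TBI day 14 (n = 4), named for the day after surgery on which tissue was taken. Sham rats went through the same anesthesia and opening of the skull as injured rats and lacked only the fluid pulse, so no group was free of surgery. The 14 libraries equal in number the 6 sham and 8 injured rats described for the study. Whole hippocampus was used, so that a change in the number of cells of a type and a change in RNA per cell cannot be told apart.

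NRF2 is a transcription factor that KEAP1 holds in the cytoplasm and marks for degradation. Oxidants and electrophiles modify KEAP1, NRF2 then accumulates in the nucleus, pairs with a small MAF protein and binds antioxidant response elements in the promoters of its targets. In brain tissue the pathway is best known from astrocytes and microglia, where its targets supply glutathione, reduce thioredoxin and degrade heme. RefSeq promoters (GRCr8 assembly, 250 bases before to 50 bases after the start of transcription) were matched for 8 of the 9 genes, all but Hmox1. The core of the antioxidant response element, written TGACNNNGC and searched on both strands, was found in the promoters of Gclm, Nfe2l2 and Txnrd1. These were 3 of the 9 promoters of the 8 genes, against 12.1% of all 33469 promoters. The AP-1 motif TGACTCA, which can overlap that core, was found in Srxn1 only, against 4.63% of all promoters. The windows of Gclm and Txnrd1 are shown because the element is the route by which NRF2 acts. The window of Srxn1 is shown for its AP-1 motif, since the searched part of its promoter held no match to the core. Bases farther from the start were not searched, so a gene without a match may hold the core there. Txnrd1 was one of the 2 genes called after injury, while Gclm and Srxn1 were not. All 3 windows are written 5′ to 3′ along the strand of the gene, with the motif in capitals. In all 3 the motif reads as the reverse complement of the letters given above.
Gclm (chr2:213031943-213031991, plus strand): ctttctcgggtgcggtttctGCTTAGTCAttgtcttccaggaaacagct
Txnrd1 (chr7:22755954-22756002, minus strand): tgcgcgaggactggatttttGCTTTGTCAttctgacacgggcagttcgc
Srxn1 (chr3:161064730-161064776, plus strand): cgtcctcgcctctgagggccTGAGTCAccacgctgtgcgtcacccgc
The capitals begin 172 bases before the start of transcription in Gclm, 78 bases before it in Txnrd1 and 62 bases before it in Srxn1. A second AP-1 match in Srxn1, not shown, begins 5 bases before the start. The match to the core in Nfe2l2, also not shown, begins 39 bases after the start. These matches describe the letters of the reference and are not measured binding sites.

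Total counts per sample ran from 17183319 to 23743703 over the 6 rats of day 1 and from 15065540 to 19781459 over the 8 rats of day 14. Markers of neurons and of hippocampal principal cells were detected in every sample, for example Prox1, a marker of dentate granule cells, at 8.04 to 110.9 CPM (a gene's counts scaled to the normalized total of its library, the unit of all levels given here). Of 12 choroid plexus markers 11 were detected, and 3 samples stood apart by their sum: it was 10980 CPM in sham day 1 replicate 1, 2070 CPM in TBI day 14 replicate 2 and 8718 CPM in TBI day 14 replicate 3, against 116.7 to 246.6 CPM in the other samples. Values without these 3 samples are given for the members whose call they changed. No pair of replicates within a group agreed within sampling noise.

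One day after TBI, Hmox1 and Txnrd1 were higher than in sham and no member was lower. The first encodes the heme-degrading enzyme heme oxygenase 1, the second the cytosolic thioredoxin reductase. The 2 called genes of 9 compare with 11.2% of all tested genes called higher, which would be about 1 gene in 9, and 7.93% called lower at this time. The median log2 fold change of the 9 genes was 0.26, against -0.02 over all tested genes, and 7 of 9 were above 0. In 4 members, Hmox1, Nqo1, Gclc and Txnrd1, every TBI rat was above both sham rats, an arrangement seen in 16.7% of all tested genes.

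**Figure D1:**
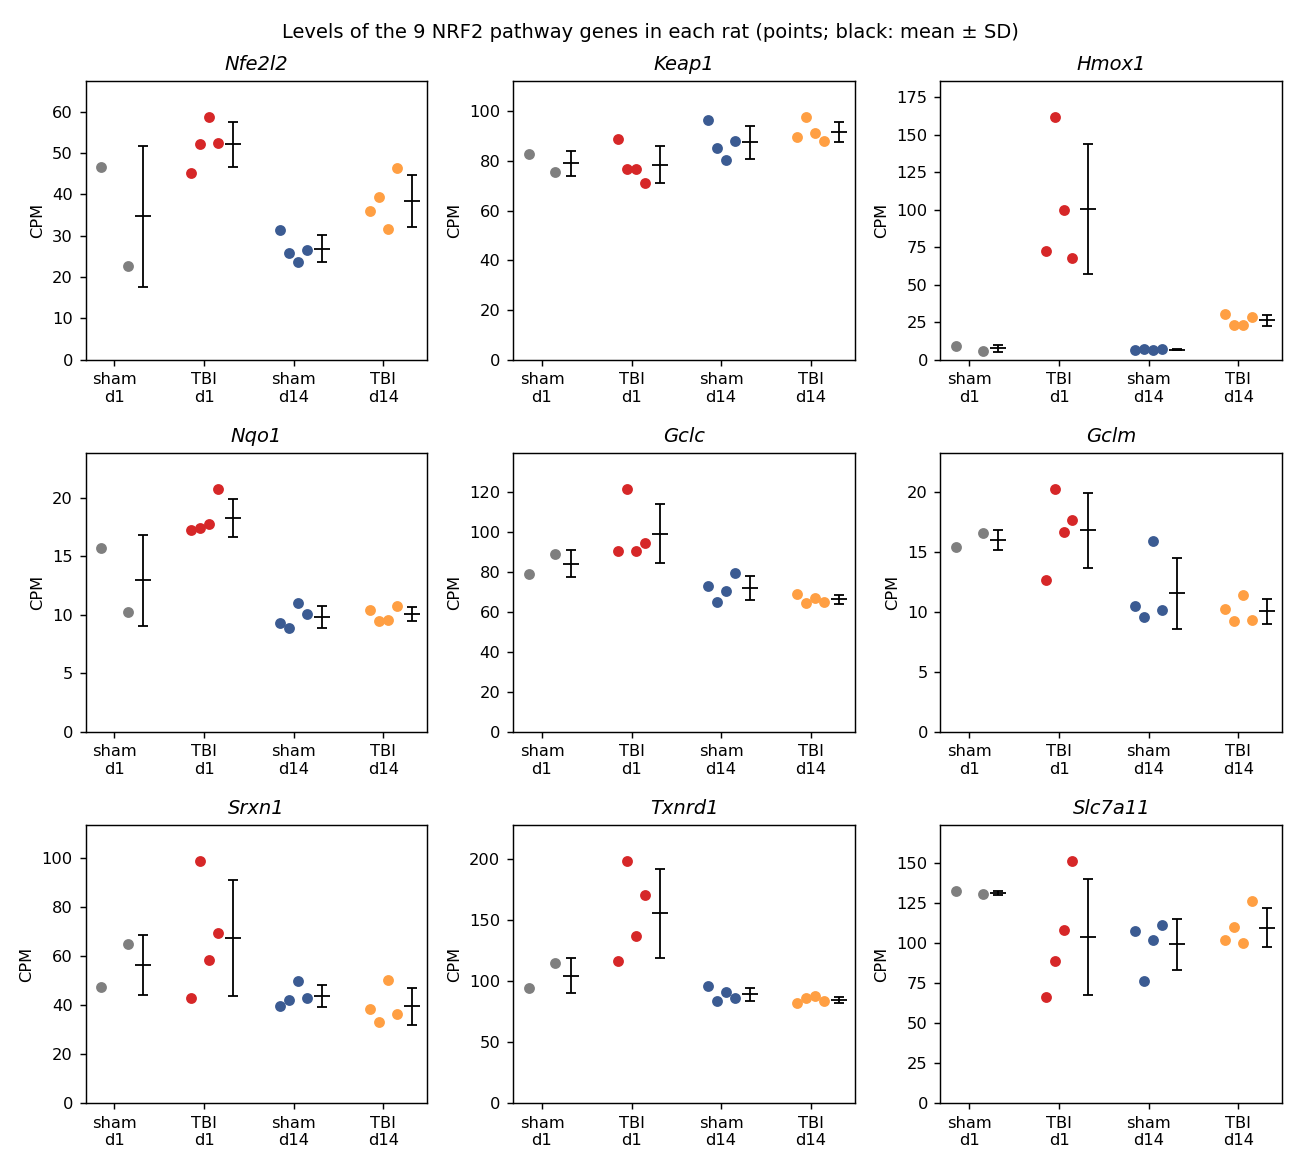
CPM of each of the 9 genes (vertical axes, linear, from 0) in sham day 1 (d1), TBI day 1, sham day 14 (d14) and TBI day 14; points are rats, and black bars give the mean ± SD. Hmox1 is above every sham rat in all 8 injured rats, while the day 14 groups of Nqo1, Gclc and Txnrd1 lie close together.

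Hmox1 was at 9.11 and 5.99 CPM in the 2 sham day 1 rats and at 72.5, 162, 99.7 and 67.9 CPM in the 4 TBI day 1 rats. The groups did not overlap, and the lowest injured rat was several times above the higher sham rat. Hmox1 rose by 3.74 ± 0.35 (SE) on the log2 scale, a 13.3-fold increase with a 95% interval of 7.95 to 22.3, and the adjusted p was 8.93e-06. By size of log2 fold change it ranked 147th of the 12875 genes tested. The raw counts behind these levels were 169 and 130 in sham and 1397 to 3981 in TBI. Across the settings tried the change stayed between 3.41 and 4.06 on the log2 scale.

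Txnrd1 was at 94.6 and 114 CPM in sham day 1 and at 116, 198, 137 and 170.2 CPM in TBI day 1. Its product returns oxidized thioredoxin to the reduced state with NADPH. TBI replicate 1 lay just above the higher sham rat, and the other 3 injured rats lay clearly above it. The log2 fold change was 0.57 ± 0.18 (SE), 1.49-fold, with an adjusted p of 0.0367. This call was lost under 11 of 26 alternatives: the log2 fold change was 0.44 (adjusted p = 0.177) without sham day 1 replicate 1, 0.72 (adjusted p = 0.0844) without sham day 1 replicate 2, 0.43 (adjusted p = 0.0741) without TBI day 1 replicate 2 and 0.43 (adjusted p = 0.229) without the 3 samples rich in choroid plexus markers. The adjusted p also rose just above 0.05 without TBI day 1 replicate 4 (0.0532), TBI day 14 replicate 1 (0.0506) or TBI day 14 replicate 3 (0.0534).

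Nfe2l2 itself was at 46.7 and 22.7 CPM in sham day 1 and at 45.2, 52.1, 58.6 and 52.4 CPM in TBI day 1. The sham rat with 46.7 CPM, replicate 1, was the one rich in choroid plexus markers, and it lay within the range of the injured rats. The log2 fold change of 0.59 ± 0.24 (SE) missed the threshold (adjusted p = 0.0943). It was 1.197 (adjusted p = 0.00342) without sham replicate 1 and 0.16 (adjusted p = 0.739) without sham replicate 2, so this value rests on which of the 2 sham rats is used. It was 1.19 (adjusted p = 0.00588) without the 3 samples rich in choroid plexus markers. Keap1, whose product targets NRF2 for ubiquitination, was at 82.7 and 75.5 CPM in sham and at 88.8, 76.9, 76.9 and 71.2 CPM in TBI. These groups overlapped, with a log2 fold change of -0.01 and a 95% interval of -0.27 to 0.25.

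Nqo1, the gene of a quinone reductase that is a standard readout of NRF2, was at 15.7 and 10.2 CPM in sham day 1 and at 17.3, 17.4, 17.8 and 20.7 CPM in TBI day 1. All 4 injured rats were above both sham rats, but the gap to sham replicate 1 was narrow. The log2 fold change was 0.50 ± 0.18 (SE) with an adjusted p of 0.0697. Other tools placed it on the other side of the threshold, with adjusted p = 0.0391 by DESeq2 and 0.042 by limma-voom, and the log2 fold change was 0.84 (adjusted p = 0.012) without sham replicate 1, 0.83 (adjusted p = 0.0237) without the 3 samples rich in choroid plexus markers and 0.22 (adjusted p = 0.58) without sham replicate 2.

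The glutathione genes were not called at day 1. Gclc, the catalytic subunit of glutamate-cysteine ligase, which carries out the rate-limiting step of glutathione synthesis, was at 79.3 and 89.0 CPM in sham and at 90.6, 122, 90.4 and 94.9 CPM in TBI. The groups were separate by a small margin, and the log2 fold change was 0.24 (95% interval -0.06 to 0.54, adjusted p = 0.246). Gclm, the modifier subunit of the same enzyme, was at 15.4 and 16.6 CPM in sham and at 12.6, 20.2, 16.6 and 17.6 CPM in TBI, with a log2 fold change of 0.07 (adjusted p = 0.851). Slc7a11, the light chain of the cystine-glutamate exchanger that brings in cystine for glutathione, was at 132 and 130.5 CPM in sham and at 66.2, 89.0, 108 and 151 CPM in TBI. Its injured rats spanned both sides of the sham values, and its log2 fold change was -0.34 (95% interval -0.86 to 0.18, adjusted p = 0.343). Without TBI replicate 4, the one rat above sham, it was called lower (log2 fold change -0.58, adjusted p = 0.0487).

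Srxn1 encodes sulfiredoxin, which reactivates overoxidized peroxiredoxins. It was at 47.6 and 64.9 CPM in sham day 1 and at 42.8, 98.8, 58.3 and 69.5 CPM in TBI day 1. The groups overlapped, and the log2 fold change was 0.26 ± 0.26 (SE) with an adjusted p of 0.516.

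**Figure D2:**
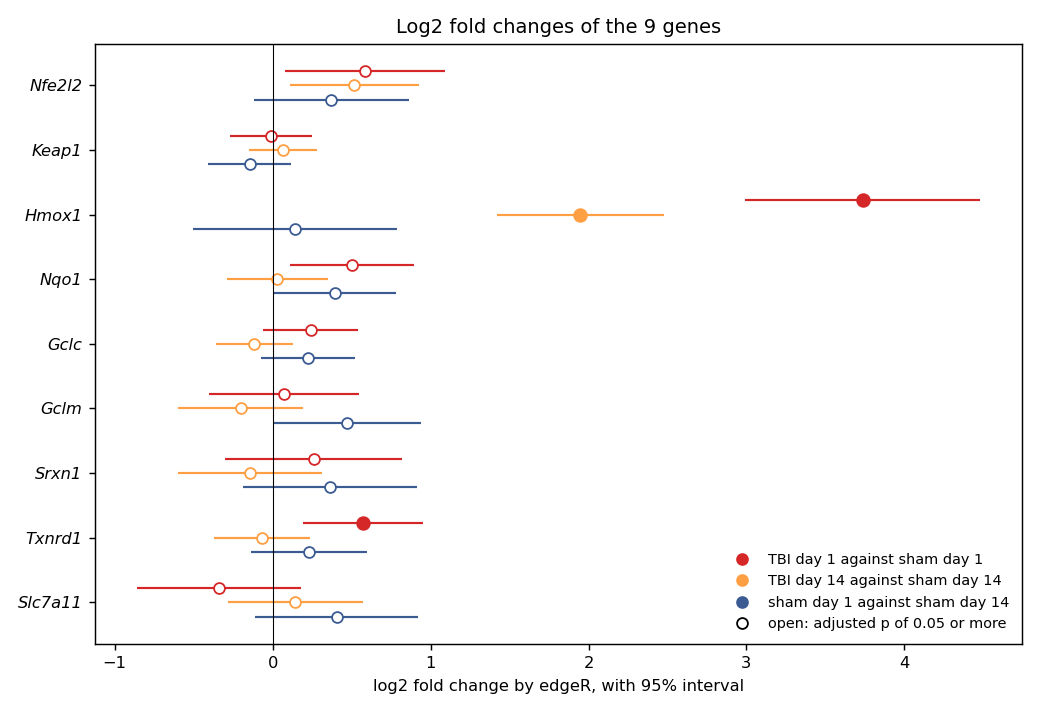
Log2 fold change of each gene by edgeR (horizontal axis, points) with its 95% interval (lines) for TBI against sham at day 1 (red), TBI against sham at day 14 (orange) and sham day 1 against sham day 14 (blue); filled points passed an adjusted p of 0.05. Filled points are Hmox1 at 3.74 and 1.95 and Txnrd1 at 0.57.

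The 4 rats of TBI day 1 differed among themselves. The coefficient of variation over the 9 genes had a median of 18.8% in TBI day 1 and 13.4% in sham day 1 (n = 2). It was 9.58% in sham day 14 and 10.1% in TBI day 14. The highest value of a gene was 42.95% in TBI day 1 and 48.97% in sham day 1. The highest of the 4 injured rats exceeded the lowest 2.38-fold for Hmox1, 2.31-fold for Srxn1, 2.28-fold for Slc7a11 and 1.71-fold for Txnrd1. It did so only 1.25-fold for Keap1 and 1.2-fold for Nqo1. Replicate 2 was the highest rat for 5 genes, Hmox1, Gclc, Gclm, Srxn1 and Txnrd1. Replicate 1 was the lowest for 6 of the 9 genes. This rat also differed in markers of cell types. Its hippocampal principal neuron markers summed to 232.3 CPM, against 580.4 to 946.3 CPM in the other TBI day 1 rats. Its oligodendrocyte markers summed to 14810 CPM, against 4073 to 8612 CPM. Whether tissue content bears on the spread of the 9 genes was not tested.

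**Figure D3:**
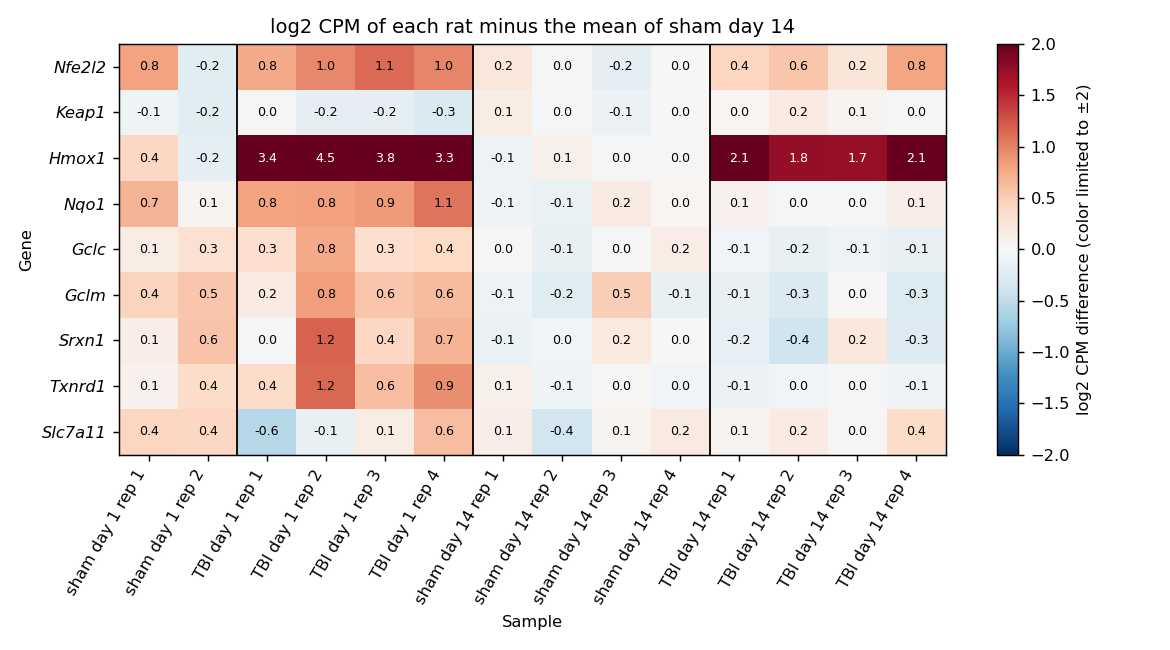
Log2 CPM of each gene (rows) in each rat (columns), minus the mean of the 4 sham day 14 rats, printed in each cell to 1 decimal; red is above and blue below that mean, with the color limited to ±2. Hmox1 stands out in all 8 injured rats, TBI day 1 replicate 2 is the strongest column for Srxn1 and Txnrd1, and the sham day 1 columns are mostly above the sham day 14 columns.

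At 14 days after TBI, Hmox1 was the one member called higher than sham, and no member was lower. Over all tested genes 4.07% were called higher and 0.365% lower at this time, against 1 and 0 of the 9 members. The median log2 fold change of the members was 0.03, against -0.03 over all tested genes. In 2 members, Nfe2l2 and Hmox1, all 4 injured rats were above all 4 sham rats, as was the case for 9.13% of tested genes.

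Hmox1 was at 6.36, 7.33, 6.71 and 6.91 CPM in sham day 14 and at 30.5, 23.4, 22.96 and 28.7 CPM in TBI day 14. Both groups were tight and far apart, with a log2 fold change of 1.95 ± 0.25 (SE), a 3.86-fold increase with a 95% interval of 2.67 to 5.57 and an adjusted p of 0.000187. It stayed between 1.87 and 2.14 and past the threshold under all 25 alternatives.

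Nfe2l2 was at 31.3, 25.9, 23.5 and 26.5 CPM in sham day 14 and at 35.9, 39.4, 31.6 and 46.4 CPM in TBI day 14. The lowest injured rat lay just above the highest sham rat. Its log2 fold change was 0.52 ± 0.19 (SE), with an unadjusted p of 0.0166 and an adjusted p of 0.201. Without the 3 samples rich in choroid plexus markers, 2 of which were in this TBI group, it was 0.64 and passed the threshold (adjusted p = 0.0447), and it also passed without sham day 1 replicate 1 (adjusted p = 0.0409) or replicate 2 (adjusted p = 0.0412), which enter this test through the shared filter, scaling and spread.

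The other 7 members at day 14 had log2 fold changes from -0.20 for Gclm to 0.14 for Slc7a11, none called. Txnrd1 was at 95.6, 83.9, 90.7 and 86.1 CPM in sham and at 82.3, 86.0, 87.8 and 83.4 CPM in TBI, so the groups overlapped, with a log2 fold change of -0.07 (95% interval -0.37 to 0.24). Nqo1 was at 8.89 to 11.03 CPM in sham and 9.49 to 10.7 CPM in TBI, with a log2 fold change of 0.03 (95% interval -0.29 to 0.35). Gclc was at 64.9 to 79.8 CPM in sham and 64.5 to 69.3 CPM in TBI, with a log2 fold change of -0.12. These 3 genes thus lay within the range of the sham rats or at its edge. Keap1 was at 80.5 to 96.4 CPM in sham and 88.1 to 97.5 CPM in TBI. Gclm was at 9.55 to 15.9 CPM in sham and 9.20 to 11.4 CPM in TBI. Srxn1 was at 39.7 to 50.1 CPM in sham and 33.0 to 50.3 CPM in TBI. Slc7a11, whose sham rats spanned 76.1 to 111 CPM, was at 99.8 to 126 CPM after injury, so that the groups overlapped here too.

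The effect of TBI on Hmox1 was larger at day 1 than at day 14. The difference between the 2 log2 fold changes was 1.79 ± 0.39 (SE), with a 95% interval of 0.95 to 2.62 and an adjusted p of 0.0213. Hmox1 was the 1 member called in this test of the difference, which called 2.24% of tested genes as larger and 1.44% as smaller at day 1. The call was lost in 5 of 24 alternatives: at a threshold of 0.01, with limma-voom (adjusted p = 0.0633), with the choroid plexus markers as a covariate (1.81, adjusted p = 0.086), without the 3 samples rich in them (1.91, adjusted p = 0.0796) and without sham day 1 replicate 2 (1.51, adjusted p = 0.113). Txnrd1 had a difference of 0.64 ± 0.23 (SE), with an unadjusted p of 0.013 and an adjusted p of 0.134. Nfe2l2 had a difference of 0.07 (adjusted p = 0.925), since its log2 fold changes at the 2 times were 0.59 and 0.52.

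By group mean, Hmox1 was ordered TBI day 1 (100.4 ± 43.1 CPM, SD, n = 4), TBI day 14 (26.4 ± 3.80 CPM, n = 4), sham day 1 (7.55 ± 2.20 CPM, n = 2) and sham day 14 (6.83 ± 0.406 CPM, n = 4), where the 2 sham groups did not differ beyond their spread. Nfe2l2 had the same order, from 52.1 ± 5.48 CPM (SD) in TBI day 1 through 38.3 ± 6.24 and 34.7 ± 16.99 CPM to 26.8 ± 3.27 CPM, with TBI day 14 and sham day 1 within each other's spread. Txnrd1, Gclc, Gclm and Srxn1 shared another order, TBI day 1, sham day 1, sham day 14, TBI day 14. For Txnrd1 the means were 155 ± 36.2, 104.5 ± 14.0, 89.0 ± 5.19 and 84.9 ± 2.51 CPM (SD), and the lower pair did not differ beyond its spread. Gclm was at 16.8 ± 3.16 and 16.0 ± 0.807 CPM (SD) at day 1 and at 11.5 ± 2.94 and 10.0 ± 1.01 CPM at day 14, so both day 1 means were above both day 14 means, although single rats overlapped.

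The sham groups also differed by day. Between sham day 1 and sham day 14 no member passed the threshold of edgeR, although 19.1% of all tested genes did (11.3% higher and 7.88% lower in sham day 1), and 1 member, Nqo1, had an unadjusted p under 0.05. Of the 9 members 8 were higher in sham day 1, with a median log2 difference of 0.36 against 0.02 over all tested genes. The log2 difference was 0.47 for Gclm (adjusted p = 0.145), 0.41 for Slc7a11 (adjusted p = 0.25), 0.39 for Nqo1 (adjusted p = 0.136), 0.37 for Nfe2l2 (adjusted p = 0.269) and 0.14 for Hmox1 (adjusted p = 0.782). Slc7a11 was the member whose sham groups did not overlap, with both sham day 1 rats above the highest sham day 14 rat at 111 CPM, an arrangement found in 21.3% of tested genes. Without sham day 1 replicate 2, 2 members were called.

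The size of the day 1 effect therefore depended on the sham group used. When the same TBI day 1 rats were set against the 4 sham day 14 rats, 7 members were higher, all but Keap1 and Slc7a11, against 25.0% of all tested genes. This comparison mixes injury with time since surgery, which cannot be told apart in it. The log2 fold change was then 3.88 for Hmox1 (adjusted p = 1.06e-07), 0.96 for Nfe2l2 (adjusted p = 0.000965) and 0.80 for Txnrd1 (adjusted p = 0.000405). The same comparison gave 0.54 for Gclm (adjusted p = 0.0256) and 0.62 for Srxn1 (adjusted p = 0.0267), which were at 0.07 and 0.26 against sham of the same day. Keap1 was at -0.16 (adjusted p = 0.212) and Slc7a11 at 0.06 (adjusted p = 0.816).

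**Figure D4:**
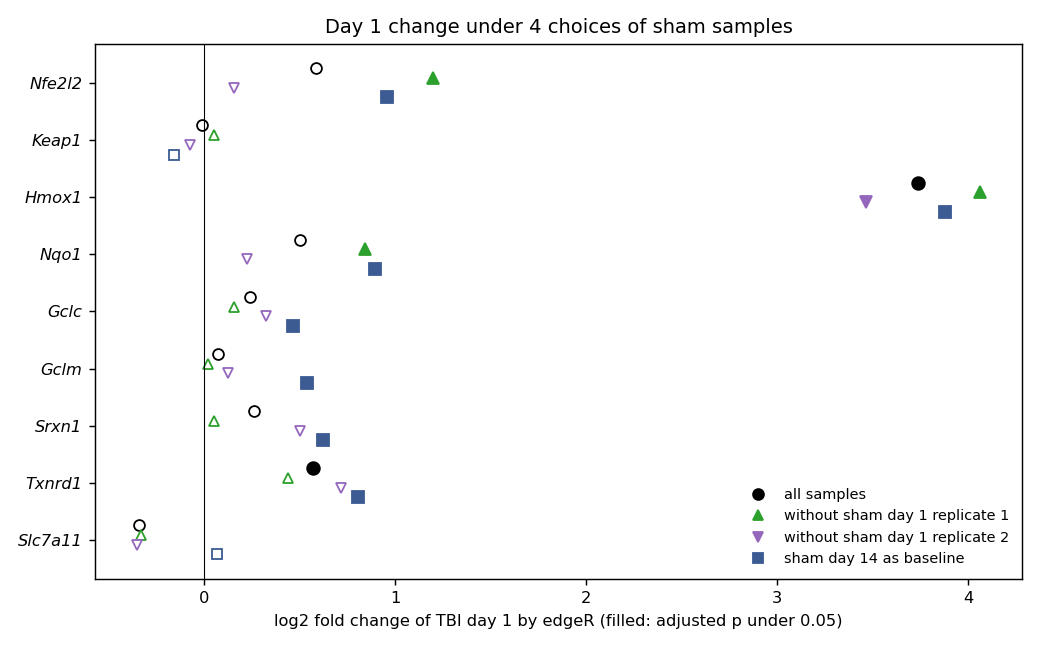
Log2 fold change of TBI day 1 for each gene (horizontal axis) with all samples (black circles), without sham day 1 replicate 1 (green triangles), without sham day 1 replicate 2 (purple triangles) and against sham day 14 (blue squares); filled symbols passed an adjusted p of 0.05. Hmox1 stays between 3.46 and 4.06, while Nfe2l2 moves from 0.16 to 1.197.

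Beyond the 9 genes, 72 genes of 7 lists around the pathway were followed, of which 70 were tested. At day 1, 13 of the 70 were higher and 4 lower, beside 11.2% and 7.93% of all tested genes, with a median log2 change of 0.06. At day 14, 3 were higher and none lower by edgeR, beside 4.07% and 0.365%. Without sham day 1 replicate 2, which left 1 rat in that group, fewer of the 70 genes were called higher at day 1. The same held for all tested genes.

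Among 11 tested partners and regulators of NRF2, 2 were higher at day 1. Maff, one of the small MAF proteins that pair with NRF2, was at 1.56 and 1.29 CPM in sham and at 34.5, 34.0, 26.2 and 18.4 CPM in TBI, with no overlap. Its log2 fold change was 4.31 ± 0.36 (SE), with an adjusted p of 5.63e-06. At day 14 Maff was back near sham, at 0.98 to 1.86 CPM in sham and 1.49 to 2.23 CPM in TBI. Its relative Mafk was higher by 0.56 on the log2 scale at day 1 (adjusted p = 0.0365), a call lost in 10 of 26 alternatives, including the fit without the 3 samples rich in choroid plexus markers (0.65, adjusted p = 0.0812).

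The 14 genes of glutathione synthesis and use held 2 that were higher and 2 that were lower at day 1. Slc3a2, the heavy chain that partners Slc7a11 in the cystine exchanger as well as other amino acid transporters, averaged 185 ± 61.2 CPM (SD, n = 2) in sham and 390 ± 39.3 CPM (n = 4) in TBI, a log2 fold change of 1.08 (adjusted p = 0.00224). The 2 chains of the exchanger thus had different values at day 1, 1.08 for Slc3a2 and -0.34 for Slc7a11; the difference between them was not tested. Mgst1, a membrane-bound glutathione transferase, was higher at both times, by 1.66 at day 1 (adjusted p = 0.00243) and by 1.31 at day 14 (adjusted p = 0.00425) on the log2 scale. Without sham day 1 replicate 1 the day 1 values were 1.46 for Slc3a2 and 2.04 for Mgst1. Without replicate 2 they were 0.78 and 1.34. Gsta4, which conjugates lipid peroxidation products, was lower at day 1 by a log2 fold change of -0.97 (adjusted p = 0.0489). Gsta3 had 5 and 17 counts in sham and 2, 2, 2 and 0 in TBI, too few for a useful fold. The Gsta family holds close copies, and these counts are uncertain.

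In the thioredoxin and peroxiredoxin list 3 of 10 genes were higher at day 1. Prdx1, a cytosolic peroxiredoxin, had a log2 fold change of 0.93 (adjusted p = 0.00664), Txn1, thioredoxin itself, 0.88 (adjusted p = 0.0281), and Prdx5, a mitochondrial and peroxisomal peroxiredoxin, 0.70 (adjusted p = 0.00696). For Txn1 the value was 1.5 (adjusted p = 0.00201) without sham day 1 replicate 1, 0.44 (adjusted p = 0.348) without replicate 2 and 0.23 (adjusted p = 0.367) against sham day 14. For Prdx1 and Prdx5 the values were 1.22 and 0.76 without sham day 1 replicate 1, and 0.69 and 0.64 without replicate 2. Prdx1 and Txn1 have processed copies in the genome that could share reads. At day 14 the 1 gene called was Txnip, which encodes an inhibitor of thioredoxin, at 63.3 ± 11.7 CPM in sham and 109 ± 22.4 CPM in TBI (SD, n = 4 each), a log2 fold change of 0.78 (adjusted p = 0.0218). This call was lost in 7 of 25 alternatives, with adjusted p = 0.0683 to 0.0954 without sham day 14 replicate 1 or 2 or TBI day 14 replicate 1 or 4, and 0.53 (adjusted p = 0.244) against all 6 sham rats.

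Of 6 tested genes of NADPH supply, Taldo1, the transaldolase of the pentose phosphate pathway, was higher at day 1 by 0.64 (adjusted p = 0.00378) on the log2 scale. None was called at day 14 by edgeR. Of 8 genes of heme and iron handling, which cover the making, transport and breakdown of heme and the storage and export of iron, Ftl1, the ferritin light chain, was called at day 1 (0.89, adjusted p = 0.0246) and at day 14 (0.79, adjusted p = 0.0292). The day 14 call was lost in 9 of 25 alternatives, among them the fit without the 3 samples rich in choroid plexus markers (0.77, adjusted p = 0.0881) and those without sham day 14 replicate 2, 3 or 4 or TBI day 14 replicate 2 or 4 (adjusted p = 0.0956 to 0.107). Ftl1 averaged 5.21, 9.67, 16.1 and 27.8 CPM in sham day 1, TBI day 1, sham day 14 and TBI day 14. Ftl1 was lower in sham day 1 than in sham day 14 (log2 difference -1.63, adjusted p = 0.00216), and its day 1 value turned to -0.73 against sham day 14. Ferritin genes have many processed copies, which makes these counts uncertain.

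In the detoxification list 3 of 13 genes were higher and 2 lower at day 1. Akr1b8, an aldo-keto reductase, averaged 0.277 CPM in sham and 2.18 CPM in TBI (log2 fold change 2.96, adjusted p = 0.00213). Its counts were only 6 and 5 in sham and 18, 60, 67 and 51 in TBI, so the size of this fold is uncertain. Osgin1, an oxidative stress-induced growth inhibitor, rose by 1.37 (adjusted p = 0.0475) on the log2 scale, a call lost in 17 of 26 alternatives. Ephx1, microsomal epoxide hydrolase, had a log2 fold change of -1.12 (adjusted p = 0.0147), which was -0.28 (adjusted p = 0.465) without sham replicate 1. None of the 8 antioxidant enzymes outside the NRF2 core, such as Sod1 and Sod2, was called in either comparison with sham by edgeR.

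**Figure D5:**
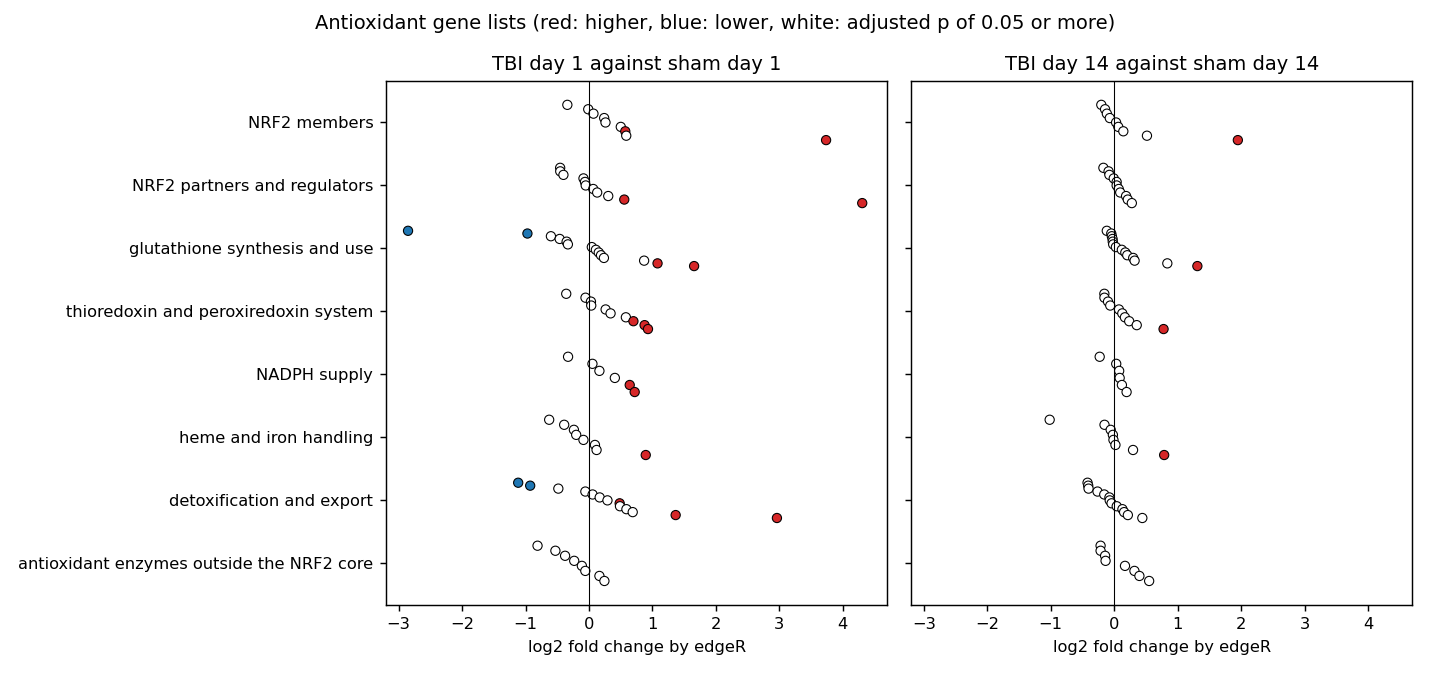
Log2 fold change by edgeR (horizontal axis) of the tested genes of each antioxidant list (rows, the 9 genes on top) for TBI against sham at day 1 (left) and day 14 (right); each point is a gene, red called higher, blue called lower and white not called. Day 1 has 13 red and 4 blue points outside the top row, and day 14 has 3 red and no blue.

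Summed levels of markers of other cells also differed between the groups. At day 1 the sum of 10 microglia and macrophage markers was 314.5 to 526.7 CPM in sham and 745.7 to 906.7 CPM in TBI, and at day 14 it was 359.2 to 455.4 CPM in sham and 914.7 to 1692 CPM in TBI. The sum of 7 markers of recruited monocytes and neutrophils was 29.97 to 56.2 CPM in sham and 250.1 to 476.8 CPM in TBI at day 1, then 29.69 to 37.5 CPM and 60.81 to 181.9 CPM at day 14. Within the first list 5 of 10 genes were higher at day 1, and P2ry12 and Tmem119, genes of resting microglia, were lower (log2 fold changes -0.88 and -1.90, adjusted p = 0.019 and 0.00299), while at day 14 9 of 10 were higher. By median the second sum, like Hmox1, was highest in TBI day 1, while the first was highest in TBI day 14. The astrocyte and erythroid sums given below were also highest in TBI day 1 by median, at 17700 and 583.9 CPM. Cd68, a lysosomal protein of phagocytes, averaged 3.94, 56.4, 3.13 and 95.2 CPM in the 4 groups. For 8 astrocyte markers the day 1 sums were 6672 to 10660 CPM in sham and 13660 to 20060 CPM in TBI, and the day 14 sums were 5813 to 7144 CPM and 9440 to 13660 CPM. Of these 8 genes only Gfap, the intermediate filament of reactive astrocytes, was called higher at day 1 (log2 fold change 3.10) and at day 14 (2.06), and the median of the list at day 1 was -0.31. For 8 neuron markers the injured rats of day 1 were lower, at 3383 to 6054 CPM against 7167 to 10080 CPM in sham. Erythroid markers, 5 genes that report blood, summed to 263.8 to 533.4 CPM in sham and 437.4 to 1077 CPM in TBI at day 1, and to 93.36 to 245 CPM over the 8 rats of day 14. All markers of these 5 lists were detected in every group, and their part in the changes of Hmox1 and Txnrd1 was not tested.

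The genes whose log2 CPM followed each member most closely over the 14 samples are given as a description, since the samples share groups, choroid plexus content and depth. For Hmox1 they included Csf2rb (r = 0.988), the common beta chain of the GM-CSF, IL-3 and IL-5 receptors, and Clec4a1 (r = 0.987), a C-type lectin. Their log2 fold changes at day 1 and day 14 were 5.0 and 2.91 for Csf2rb and 4.11 and 2.16 for Clec4a1, beside 3.74 and 1.95 for Hmox1. For Nfe2l2 they were Plbd1 (r = 0.955), Nuak2 (r = 0.941) and Pik3ap1 (r = 0.940). For Nqo1 they were Dock1 (r = 0.964), Prg4 (r = 0.962) and Ezr (r = 0.954). For Txnrd1 they were the actin regulator Wdr1 (r = 0.960), the translation factor subunit Eif2s2 (r = 0.956) and Pcbp3 (r = 0.954), and for Srxn1 the mitochondrial chaperone Hspa9 (r = 0.953), the proteasome subunit Psmd1 (r = 0.942) and the mitochondrial superoxide dismutase Sod2 (r = 0.936). For Gclc they were Ptpn12 (r = 0.934), Akap12 (r = 0.932) and F7 (r = 0.916), and for Gclm Rnf115 (r = 0.953), Zfp9 (r = 0.946) and Tmed5 (r = 0.944). For Keap1 they were Rgs11 (r = 0.935), Pld2 (r = 0.932) and Hps4 (r = 0.930), and for Slc7a11 Cyp2r1 (r = 0.906), Lpar3 (r = 0.865) and Ccl24 (r = 0.864). No gene appeared under 2 members.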

How the data were processed

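The authors prepared stranded poly(A) libraries from ipsilateral hippocampus, sequenced them single-end on a HiSeq instrument, aligned reads with STAR 2.4.2a to the rat rn5 assembly and counted them per UCSC gene with featureCounts 1.5.0 (versions from the submitters' processing notes). The deposited values are raw counts per gene and sample. Whether counting used strand is not given in the sources used here, so overlapping genes cannot be told apart. Groups came from the sample titles.

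Counts were scaled by TMM and tested with edgeR 4.0.16 (filterByExpr, quasi-likelihood, 1 mean per group over all 14 samples, Benjamini-Hochberg over 12875 genes, threshold 0.05) in R 4.3.3. SE is the log2 fold change divided by the root of F. Log2 CPM used a prior count of 2. Testing was checked on simulated counts. Alternatives were limma-voom (limma 3.58.1), DESeq2 1.42.0, other scaling, filters, threshold, baselines, a replicate block, a choroid plexus covariate and each sample left out. The 3 samples rich in choroid plexus markers were left out after the data were seen. Where 1 sham day 1 sample remained, it was assumed to vary like the other groups. The 9 genes and all lists were chosen with earlier results of these data known. Named besides the 9 genes were up to 3 called genes of each of 7 lists per comparison by size of change, and 3 genes most correlated with each member. Gsta4 was named after its values were seen. A few genes that meet these rules are not reported here. H3K4me3 peak files were not used here, because their rn5 positions carry no gene names.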

Additional observations from a re-analysis of the deposited data

Results flagged for a closer look

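In TBI day 1 the level of Nqo1 in replicate 4, at 20.7 CPM, stood apart from the other 3 rats at 17.3 to 17.8 CPM: on the log2 scale its gap to the nearest rat was 0.84 of the range of the group. Gclc in TBI day 1 replicate 2, at 122 CPM, stood apart from the other 3 rats at 90.4 to 94.9 CPM in the same way, with a gap of 0.836 of the range. In all 27 sets of 4 rats were examined, 9 genes in 3 groups, and about 1 in 20 such sets meets this criterion by chance. The effect of TBI on Hmox1 differed between the times by the interaction test, with a log2 fold change larger by 1.79 at day 1 than at day 14.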

How the results depend on the processing

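Hmox1 stayed past the threshold under all 26 alternatives at day 1 and all 25 at day 14. Over all tested genes the share called higher at day 1 was 11.2% in the main fit. The share was 4.38% with only the 2 groups compared and 6.12% at an adjusted p of 0.01. Against all 6 sham rats it was 18.2%, and against sham day 14 it was 25%. The number of members higher at day 1 (2) was 1 with only the 2 groups compared, with the replicate block, at an adjusted p of 0.01 and with the choroid plexus covariate. This number was 3 by limma-voom and by DESeq2, 7 against sham day 14 and 5 against all 6 sham rats. It was 1 to 3 with 1 sample left out (1 without sham day 1 replicate 2, TBI day 1 replicate 2 or 4, or TBI day 14 replicate 1 or 3), and members lower were 0 to 1. At day 14 the number higher (1) was 2 with only the groups compared and without the 3 choroid plexus-rich samples, and 1 to 2 with 1 sample left out (2 without either sham day 1 rat). Members whose effects differed between times (1) were 0 by limma-voom, at an adjusted p of 0.01 and with the covariate. With 1 sample left out they were up to 2. With all 6 sham rats as 1 baseline the count was 6. Sham then cancels, so that fit set TBI day 1 directly against TBI day 14 and mixed injury with time since surgery. Members differing between sham groups (0) were 0 to 2. Other pathway genes higher at day 1 (13) were 4 with only the groups compared, 7 at 0.01, 22 against sham day 14 and 2 to 14 with 1 left out. At day 14 (3) they were 1 at 0.01, against all sham rats and with the covariate, and 1 to 4 with 1 left out (1 without sham day 14 replicate 2 or TBI day 14 replicate 4).

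Among single genes, 7 uncalled values and 1 called value, that of Ftl1, changed sign. Keap1 at day 1 was 0.028 with at least 10 counts in every sample, 0.019 with only the groups compared, 0.041 with the replicate block, 0.030 with the covariate, 0.053 without sham day 1 replicate 1, 0.033 with TBI day 1 replicate 4 dropped and 0.043 without the 3 samples, ranging from -0.076 to 0.053 with 1 rat left out. Gclm at day 1 was -0.015 with the replicate block and -0.031 to 0.19 with 1 rat left out, the lowest without TBI day 1 replicate 2. Slc7a11 was 0.064 at day 1 against sham day 14 and -0.0032 at day 14 against all sham rats. Nqo1 at day 14 was -0.11 against all sham rats, -0.048 with the covariate, and with 1 rat left out -0.015 (no sham day 14 replicate 2) to 0.091, with -0.0028 when TBI day 14 replicate 4 was dropped. The difference between times was for Nfe2l2 -0.36 without sham day 1 replicate 2, -0.012 without sham day 14 replicate 1, -0.038 with TBI day 14 replicate 3 dropped and up to 0.68 with another rat left out, and 0.00021 for Keap1 with the covariate. Ftl1 at day 1 was -0.73 against sham day 14 and -0.36 against all sham rats. The causes were not tested.

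Replicate numbers gave no clear sign of pairing: 5 of 18 same-numbered pairs had deviations correlated above 0.1, with r from -0.348 to 0.243. These few weak correlations cannot show whether the numbers mark a batch. The paper states that its expression trajectories were corrected for batch, and the sample titles name no batch. With the replicate block Txnrd1 at day 1 had an adjusted p of 0.0507 and Osgin1 of 0.0593. The block changed no other call among the genes refitted with it, which did not include Gsta4. With 2 sham day 1 rats, the SE of a member's log2 fold change at day 1 was 0.12 to 0.35.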

Other observations

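Between the 2 sham groups, which carried no percussion, 10 of the 70 tested antioxidant genes outside the 9 were higher at day 1 and 4 were lower, beside 11.3% and 7.88% of all tested genes. Sod3, the extracellular superoxide dismutase, was higher in sham day 1 by 1.47 on the log2 scale (adjusted p = 0.00684 by edgeR), Cat, catalase, by 0.81 (adjusted p = 0.00399), Gstm1, a glutathione transferase, by 0.80 (adjusted p = 0.00312) and Prdx6, a peroxiredoxin with phospholipase activity, by 0.80 (adjusted p = 0.00887). Txnrd2, the mitochondrial relative of Txnrd1, had a log2 difference of -0.78 (adjusted p = 0.0174), and Abcc1, an exporter of glutathione conjugates, of -1.14 (adjusted p = 0.0442). Gstm1 has close copies, and its count is uncertain. These genes were picked from the called ones after their values were seen. Of the 2 sham day 1 rats, replicate 1 was the one rich in choroid plexus markers.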
